A study of Homo sapiens with 12 samples.

Results

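The comparison set cells that carried the effector dCasRx-RBM25 against cells that carried the effector RBFOX1N-dCasRx-C, with the guides pooled. Every library of either effector was a member, which gave 10 of the 12 libraries of the series: 6 with dCasRx-RBM25 (2 each with a nontargeting, a MAPT and a CD46 guide) and 4 with RBFOX1N-dCasRx-C (2 each with a nontargeting and a MAPT guide). The other 2 libraries held dCasRx alone with the nontargeting guide and are given beside the others without a test. All cells were HEK293T, a human embryonic kidney line that carries the SV40 large T antigen, transfected with 200 ng of effector vector and 200 ng of guide vector and harvested 48 h later. Poly(A)-selected directional libraries were read as 150-nt pairs. Nothing in the labels says whether the replicates were separate cultures, so the p-values measure the spread between these libraries, which may be technical.

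dCasRx is the RNA-guided nuclease CasRx made catalytically dead, so that a fused splicing factor can be brought to a chosen transcript. RBM25 is an arginine- and glutamate-rich relative of the SR proteins that binds RNA through an RRM and a PWI domain and is known to work with U1 snRNP at 5′ splice sites, through LUC7L3. RBFOX1 belongs to a family that reads the RNA letters UGCAUG; in general an exon is included more when RBFOX binds downstream of it and less when RBFOX binds upstream of or inside it. In RBFOX1N-dCasRx-C the dead CasRx stands between N- and C-terminal parts of RBFOX1. The guides name no gene other than MAPT and CD46, so the comparison is one of 2 overexpressed fusion proteins across the transcriptome, and the effect of the fused domain cannot be told apart from that of its level in the cell.

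The reads of the gene RBM25, which include those of the effector, took 4.08 to 5.69% of all counts in the dCasRx-RBM25 libraries and 0.0200 to 0.0225% in the RBFOX1N-dCasRx-C libraries, as the labels say. RBFOX1 had 0 to 6 counts in any library, so the level of the RBFOX1N fusion could not be read from its gene. Total counts were 39428093 to 53985468 with dCasRx-RBM25 and 33690196 to 41225760 with RBFOX1N-dCasRx-C. On the first principal component, with 41.4% of the variance, the dCasRx-RBM25 libraries lay between -34.4 and -26.4, the RBFOX1N-dCasRx-C libraries between 45.2 and 54.2, and the dCasRx libraries at -4.53 and -10.7. On the second component the 2 dCasRx libraries stood apart from the others and from each other, at -29.9 and -69.9, against 3.53 to 15.3 for all others. The gene RBM25 and the guide-targeted MAPT exon 10 and CD46 exon 13 were left out of every count below. Single libraries are named by effector, guide and replicate, so that RBFOX1N-MAPT-1 is replicate 1 of RBFOX1N-dCasRx-C with the MAPT guide.

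Gene expression differed widely between the effectors. Of 20592 genes tested, 8147 (39.6%) were called by edgeR's quasi-likelihood test at a Benjamini-Hochberg adjusted p under 0.05, 3956 (19.2%) higher and 4191 (20.4%) lower with dCasRx-RBM25. The larger differences were mostly on the lower side: 1243 genes (6.04%) were lower by at least 2-fold and 378 (1.84%) were higher by at least 2-fold. In 6050 of the called genes (29.4% of those tested) the libraries of the effectors did not overlap. Among the 14620 protein-coding genes tested, 537 were lower and 143 higher by at least 2-fold; among 3667 other noncoding genes the counts were 496 and 155. With the guides taken apart, 3429 genes (16.7%) were called with the nontargeting guide and 4659 (22.6%) with the MAPT guide. Leaving out any single library gave 5818 to 8802 called genes; without RBFOX1N-MAPT-1, 2542 genes were called higher. The libraries came from whole cultures, so a lower level per cell and fewer cells that express a gene cannot be told apart.

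The 12 genes named in each direction were taken from called genes with a mean of at least 5 CPM in an effector. Only genes whose libraries of the effectors did not overlap were used, which held for 31.1% of all tested genes, called or not. The 12 named genes lower with dCasRx-RBM25 had varied roles. S100A2 (chr1:153561108-153567890 in hg38), a calcium-binding protein of epithelial cells, had 0.0769, 0.167 and 0.239 CPM (lowest, median and highest of 6 libraries, as counts scaled to the library's total, CPM) with dCasRx-RBM25 and 17.3, 20.3, 17.3 and 14 CPM in the 4 RBFOX1N-dCasRx-C libraries. Its log2 difference was -6.68 ± 0.15 (SE), with an adjusted p of 5.75e-12 (edgeR). Every RBFOX1N-dCasRx-C library lay far above every dCasRx-RBM25 library, and the dCasRx libraries were near the low group. HMOX1 (chr22:35380361-35394214), heme oxygenase 1, the heme-degrading enzyme induced by oxidative stress, had 49.9, 54.6 and 59.9 CPM with dCasRx-RBM25, 467, 431, 462 and 440.5 CPM with RBFOX1N-dCasRx-C and 60.9 and 52.1 CPM with dCasRx. Its log2 difference was -3.05 ± 0.067, with an adjusted p of 5.75e-12 (edgeR). The RBFOX1N-dCasRx-C libraries alone were high, and the other 8 libraries sat together.

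GDF15 (chr19:18374731-18389176), a secreted stress cytokine and p53 target, had 10.2, 18.4 and 23.1 CPM with dCasRx-RBM25, 249.5, 216, 236 and 218 CPM with RBFOX1N-dCasRx-C and 57.4 and 57.2 CPM with dCasRx, a log2 difference of -3.69 ± 0.14 (adjusted p = 9.83e-10, edgeR). Here the dCasRx libraries lay between the fused effectors, and no groups overlapped. NECTIN4 (chr1:161070995-161089599), a cell adhesion protein of the nectin family, had 2.08, 2.29 and 3.3 CPM with dCasRx-RBM25, 28.3, 30.9, 34.4 and 30.1 CPM with RBFOX1N-dCasRx-C and 11.9 and 12.2 CPM with dCasRx, a log2 difference of -3.66 ± 0.097. INPP5D (chr2:233059967-233207903), which encodes the inositol phosphatase SHIP1 of blood cells, showed another order. It had 2.52, 3.5 and 4.78 CPM with dCasRx-RBM25, 38, 33.5, 32.3 and 33 CPM with RBFOX1N-dCasRx-C and 36.9 and 34.1 CPM with dCasRx, a log2 difference of -3.33 ± 0.11. Its dCasRx libraries overlapped the RBFOX1N-dCasRx-C libraries, and the dCasRx-RBM25 libraries alone were low.

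The other 7 genes with the largest lower values were LAPTM5 (-4.75 ± 0.24), a lysosomal protein of blood cells, GAS6-AS1 (-4.70 ± 0.23), CNN1 (-3.95 ± 0.16), the smooth-muscle protein calponin 1, SSC5D (-3.28 ± 0.21), UNC13D (-3.07 ± 0.18), a factor of granule release, STAB1 (-2.68 ± 0.15), a scavenger receptor, and LAG3 (-2.64 ± 0.15), an inhibitory receptor of T cells. All 7 averaged under 1 CPM in the dCasRx-RBM25 libraries and under 10 CPM in the RBFOX1N-dCasRx-C libraries. They met the limit of 5 CPM through the RBFOX1N-dCasRx-C libraries alone. In none did the libraries of the effectors overlap, as the rule for naming required. GAS6-AS1 overlaps GAS6 on the other strand. No source used here says whether the counting kept the strands apart, and its reads are uncertain.

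The named genes higher with dCasRx-RBM25 differed by less. The largest log2 difference over all tested genes was 6.02, in a gene that did not meet the limits for named genes. TNN (chr1:175067858-175148066), tenascin N, an extracellular matrix protein, had 9.44, 11.6 and 13.3 CPM with dCasRx-RBM25, 2.31, 1.74, 1.69 and 1.81 CPM with RBFOX1N-dCasRx-C and 2.15 and 1.58 CPM with dCasRx. Its log2 difference was 2.57 ± 0.12 (adjusted p = 6.42e-09, edgeR), and the dCasRx-RBM25 libraries alone were high. HOXD10 (chr2:176108790-176119942), a homeobox transcription factor of posterior and limb patterning, had 61.3, 73.8 and 85.5 CPM with dCasRx-RBM25, 28.1, 32.5, 30.8 and 30.9 CPM with RBFOX1N-dCasRx-C and 49.7 and 36.4 CPM with dCasRx, a log2 difference of 1.25 ± 0.11. BCL11B, a zinc-finger transcription factor of T cells and neurons, averaged 9.44 ± 1.34 CPM with dCasRx-RBM25 and 2.5 ± 0.307 CPM with RBFOX1N-dCasRx-C (SD, n = 6 and n = 4), a log2 difference of 1.91 ± 0.13. NOG, the BMP antagonist noggin, averaged 15.6 ± 4.4 CPM with dCasRx-RBM25 and 4.61 ± 0.455 CPM with RBFOX1N-dCasRx-C, a log2 difference of 1.75 ± 0.18. TOR4A, a torsin-family ATPase, averaged 27.9 ± 6.22 CPM with dCasRx-RBM25 and 10.0 ± 0.746 CPM with RBFOX1N-dCasRx-C, a log2 difference of 1.45 ± 0.11. In each of these genes the lowest dCasRx-RBM25 library was above the highest RBFOX1N-dCasRx-C library, as the rule for naming required. The other 7 of the 12 largest were C1QTNF12 (1.83 ± 0.19), KIAA1614 (1.62 ± 0.13), the potassium channel KCNJ14 (1.57 ± 0.13), MIR210HG (1.57 ± 0.20), the host transcript of the hypoxia-induced miR-210, RPRML (1.37 ± 0.21), PPP1R3G (1.33 ± 0.17), a glycogen-targeting phosphatase subunit, and the gasdermin GSDMB (1.27 ± 0.10).

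**Figure D1:**
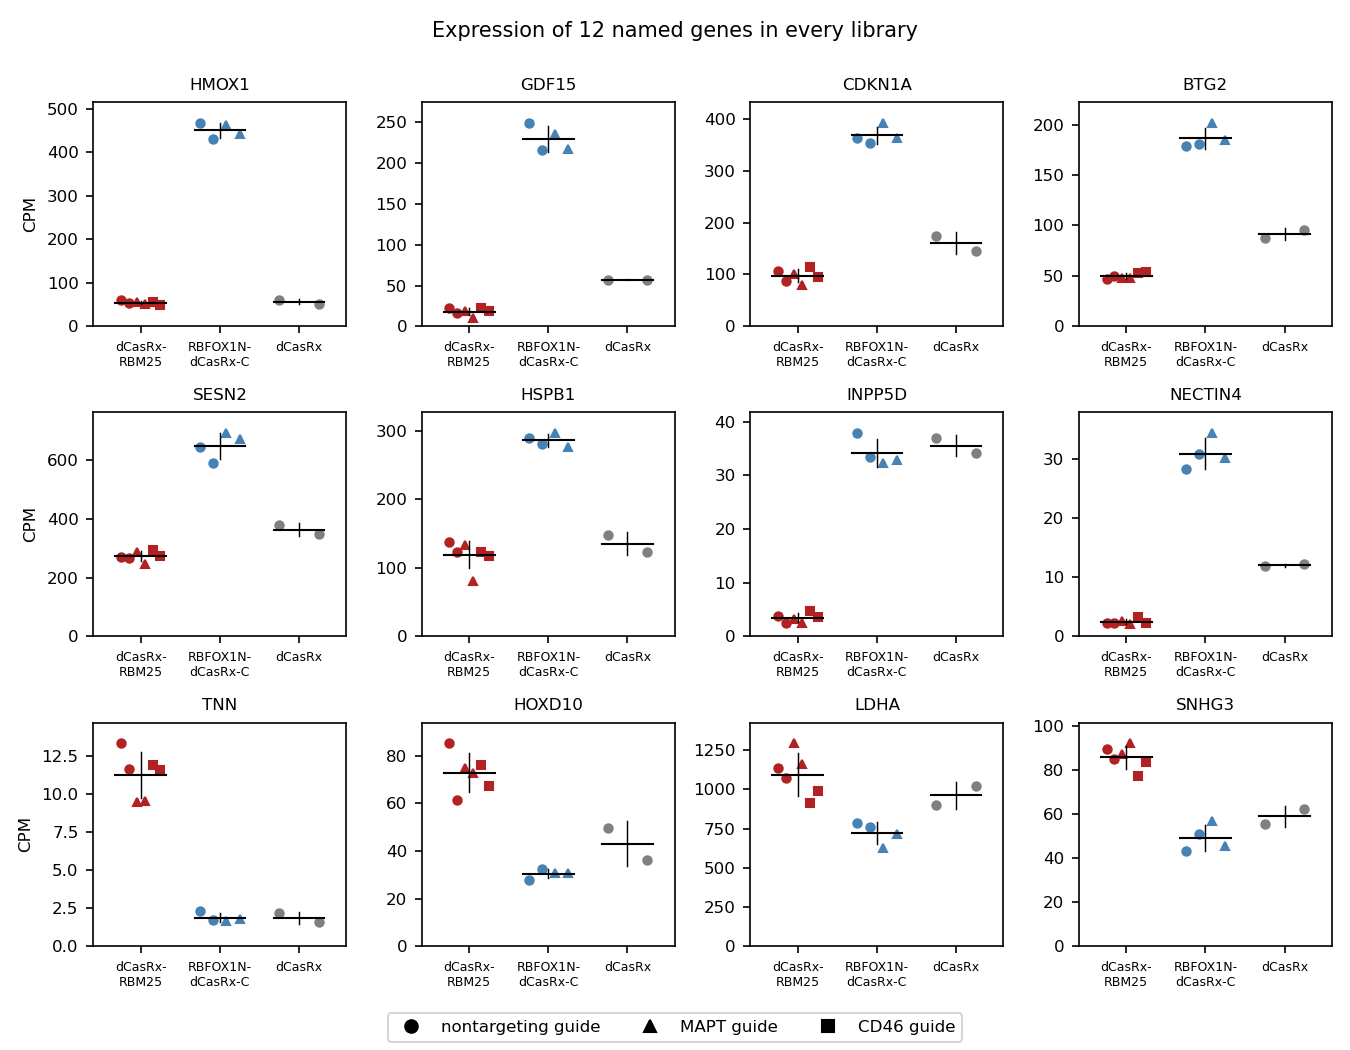
CPM (vertical axes, from 0) of 12 named genes in every library of dCasRx-RBM25 (red), RBFOX1N-dCasRx-C (blue) and dCasRx (grey); marker shape gives the guide, the horizontal bar the mean and the vertical line 1 SD (n = 6, 4 and 2). HMOX1 is high with RBFOX1N-dCasRx-C alone, INPP5D is low and TNN is high with dCasRx-RBM25 alone.

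Members of 22 lists of pathways, splicing factors and markers were counted next, beside the 19.2% of all genes called higher, the 20.4% called lower and the median log2 difference of 0.0111 over all genes. The lists and their members were chosen with earlier results of these data known, so the counts describe these lists and test nothing. p53 is a transcription factor that halts the cell cycle after DNA damage and stress, and the large T antigen of HEK293T binds it. Of 34 p53 target genes tested, 27 were lower, 1 was higher and 6 were not called, with a median log2 difference of -0.48. CDKN1A, the cell-cycle inhibitor p21, had 80.4, 98.1 and 114 CPM with dCasRx-RBM25, 364, 352, 392 and 364 CPM with RBFOX1N-dCasRx-C and 175 and 145 CPM with dCasRx, a log2 difference of -1.92 ± 0.085 (adjusted p = 5.03e-09, edgeR). The dCasRx libraries lay between the fused effectors, without overlap. BTG2, an antiproliferative p53 target that is also an immediate early gene, averaged 49.8 ± 2.9 CPM with dCasRx-RBM25 and 186 ± 10.5 CPM with RBFOX1N-dCasRx-C (SD, n = 6 and n = 4), a log2 difference of -1.91 ± 0.052. TP53I3, a quinone oxidoreductase, averaged 6.09 ± 0.641 CPM with dCasRx-RBM25 and 32.3 ± 1.76 CPM with RBFOX1N-dCasRx-C, a log2 difference of -2.41 ± 0.069. The proapoptotic genes BBC3 (-1.60), FAS (-0.68) and BAX (-0.64) and the p53 ubiquitin ligase MDM2 (-0.54) were among the lower members, and CCNG1 (0.35) was the higher one; these 5 and the list members given below without a standard error were chosen after their values were seen. Without RBM25-MAPT-1, 2 members were higher.

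Immediate early genes are transcription factors and phosphatases switched on within minutes of a growth or stress signal. Of 40 tested, 27 were lower, 2 were higher and 11 were not called, with a median of -0.42. FOSL1, an AP-1 subunit, averaged 4.43 ± 0.84 CPM with dCasRx-RBM25 and 14.2 ± 2.11 CPM with RBFOX1N-dCasRx-C, a log2 difference of -1.68 ± 0.14. KLF2, a Krüppel-like factor, averaged 4.86 ± 1.04 CPM with dCasRx-RBM25 and 13.9 ± 1.26 CPM with RBFOX1N-dCasRx-C, a log2 difference of -1.52 ± 0.14, and FOSL2, another AP-1 subunit, differed by -1.17 ± 0.077. The classic members JUN (-0.41), EGR1 (-0.56) and FOS (-0.23) were lower as well. DUSP4 (0.68) and DUSP6 (1.01), phosphatases that switch off ERK, were the 2 higher members. With the nontargeting guide alone 16 of the 40 were lower, and without RBM25-MAPT-2 4 were higher.

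Heat shock genes, chiefly chaperones under HSF1, had 16 lower and 2 higher members of 33, with a median of -0.17. HSPB1, the small heat shock protein HSP27, had 80.5, 124 and 137 CPM with dCasRx-RBM25, 290.0, 281, 297 and 277 CPM with RBFOX1N-dCasRx-C and 147 and 123 CPM with dCasRx, a log2 difference of -1.26 ± 0.11 (adjusted p = 1.61e-06, edgeR). The dCasRx libraries lay within the dCasRx-RBM25 range or just above it, and the RBFOX1N-dCasRx-C libraries alone were high. HSPB8, a small heat shock protein that works with BAG3, averaged 2.94 ± 0.198 CPM with dCasRx-RBM25 and 10.8 ± 0.953 CPM with RBFOX1N-dCasRx-C, a log2 difference of -1.87 ± 0.093, and CRYAB, alpha-B crystallin, differed by -1.87 ± 0.22 at under 1.5 CPM. The inducible HSPA1B (-0.91) and its cochaperone DNAJB1 (-1.09) were lower; HSPA1B shares reads with its near-identical copy HSPA1A and is uncertain. HSPA6 (1.04), another inducible member, was higher. The higher count was 1 without any of RBM25-NT-1, RBM25-MAPT-1, RBM25-CD46-1, RBM25-CD46-2, RBFOX1N-NT-2, RBFOX1N-MAPT-1 and RBFOX1N-MAPT-2.

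Targets of ATF4, the transcription factor of the integrated stress response, were split, with 10 lower and 7 higher of 32 and a median of -0.029. SESN2, a stress-induced inhibitor of mTORC1 that p53 also induces, had 246, 272 and 293 CPM with dCasRx-RBM25, 644, 588, 691 and 670.3 CPM with RBFOX1N-dCasRx-C and 379 and 348 CPM with dCasRx, a log2 difference of -1.25 ± 0.058. DDIT3, the proapoptotic factor CHOP, averaged 7.77 ± 0.876 CPM with dCasRx-RBM25 and 20.9 ± 1.82 CPM with RBFOX1N-dCasRx-C, a log2 difference of -1.43 ± 0.08, and FGF21 differed by -1.79 ± 0.23. ASNS, asparagine synthetase, went the other way and averaged 8.03 ± 1.38 CPM with dCasRx-RBM25 and 3.84 ± 0.77 CPM with RBFOX1N-dCasRx-C, a log2 difference of 1.04 ± 0.15. Chaperones and other genes of the unfolded protein response of the endoplasmic reticulum had 7 lower and 3 higher members of 26, led by DERL3 (-0.36), CRELD1 (-0.35) and SYVN1 (-0.33), and the chaperone HSPA5 was higher by 0.17. The higher count was 1 without any of RBM25-CD46-1, RBFOX1N-NT-2 and RBFOX1N-MAPT-1; without RBFOX1N-NT-2 the lower count was 4, and DERL3 had an adjusted p of 0.0505 (edgeR). CRELD1, with an adjusted p of 0.0499 (edgeR), kept its call only when RBM25-MAPT-2 or RBFOX1N-NT-1 was the library left out.

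Targets of YAP and TEAD, the transcription pair of the Hippo pathway, had 8 higher and 6 lower members of 22. The lower members led in size: AXL (-2.58 ± 0.29), a receptor kinase at under 1.5 CPM, ANKRD1 (-2.41 ± 0.13), NUAK2 (-0.90 ± 0.11) and CCN1 (-0.65 ± 0.071). Without any of RBFOX1N-NT-1, RBFOX1N-NT-2 and RBFOX1N-MAPT-1, 5 were higher. Interferon response genes had 10 lower and 5 higher members of 31; IFIT2 (-1.93 ± 0.20) and OASL (-1.61 ± 0.37) were lower and IFI44L (1.96 ± 0.41) was higher, each at under 2.5 CPM, and the libraries of IFI44L overlapped. Without RBM25-CD46-2 the lower count was 6, and the higher count was 3 without any of RBFOX1N-NT-1, RBFOX1N-MAPT-1 and RBFOX1N-MAPT-2. Neuronal genes had 9 lower and 5 higher members of 24, with the tubulin TUBB3 (-2.21 ± 0.24) lowest and STMN2 (0.98 ± 0.27) highest. STMN2 had an adjusted p of 0.0535 without RBFOX1N-NT-1 and 0.0505 without RBFOX1N-MAPT-2 (edgeR), and the higher count was 3 without RBFOX1N-MAPT-1. Mitosis and proliferation genes had 8 lower and 1 higher of 32, by small amounts; MKI67, the proliferation antigen Ki-67, averaged 410.2 ± 49.9 CPM with dCasRx-RBM25 and 537 ± 23.9 CPM with RBFOX1N-dCasRx-C, a log2 difference of -0.40 ± 0.076. The count of 8 was 4 or 5 without any of RBM25-NT-2, RBM25-CD46-1, RBM25-CD46-2, RBFOX1N-NT-1, RBFOX1N-MAPT-1 and RBFOX1N-MAPT-2. The higher count was 3 without RBM25-NT-1 or RBM25-MAPT-1 and 0 without RBFOX1N-MAPT-1.

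Glycolysis genes were called in the other direction, with 10 of 22 higher, 1 lower (ENO2, -0.30) and a median of 0.17. Without RBM25-MAPT-2, 16 were higher, and ENO2 lost its call without RBM25-NT-2, RBM25-CD46-2 or any RBFOX1N-dCasRx-C library. LDHA, lactate dehydrogenase A, had 914, 1105 and 1297 CPM with dCasRx-RBM25, 784, 760.5, 629.5 and 716 CPM with RBFOX1N-dCasRx-C and 903 and 1024 CPM with dCasRx, a log2 difference of 0.59 ± 0.063 (adjusted p = 1.02e-05, edgeR). The fused effectors did not overlap, and the dCasRx libraries lay at the low end of the dCasRx-RBM25 range. PGK1, phosphoglycerate kinase, averaged 551 ± 61.9 CPM with dCasRx-RBM25 and 385 ± 37.1 CPM with RBFOX1N-dCasRx-C, a log2 difference of 0.52 ± 0.066. PDK1, a kinase of pyruvate dehydrogenase, differed by 0.54 ± 0.064 and the glucose transporter SLC2A3 by 0.59 ± 0.14. Transcripts that host snoRNAs in their introns had 8 of 17 higher and none lower at the adjusted threshold by edgeR or DESeq2, with a median of 0.28; SNHG3 averaged 85.9 ± 5.15 CPM with dCasRx-RBM25 and 49.2 ± 5.98 CPM with RBFOX1N-dCasRx-C, a log2 difference of 0.80 ± 0.075. Genes of cholesterol and fatty acid synthesis were split, with 10 higher and 6 lower of 32; SC5D (0.48 ± 0.065) led the higher and TM7SF2 (-0.71 ± 0.064), PMVK (-0.70 ± 0.058) and HSD17B7 (-0.70 ± 0.062) the lower. Replication-dependent histones, most of whose mRNAs lack the poly(A) tail these libraries were selected on, had 9 higher and 5 lower of 36, with H1-2 at 0.87 ± 0.10. Of the 13 mitochondrially encoded mRNAs, MT-ND6 was higher (0.95 ± 0.17) and MT-CYB lower (-0.35 ± 0.13). MT-CYB lost its call without any of RBM25-NT-1, RBM25-MAPT-1, RBM25-CD46-1, RBM25-CD46-2, RBFOX1N-NT-2 and RBFOX1N-MAPT-1. The lower count was 2 without RBM25-MAPT-2 or RBFOX1N-NT-1 and 4 without RBFOX1N-MAPT-2, and the higher count was 2 without RBFOX1N-MAPT-1.

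Among the splicing factors, SR proteins and their kinases had 8 higher and 1 lower (SRSF2, -0.20) of 22. SRSF1 (0.56 ± 0.12), SRSF10 (0.43 ± 0.07), SRRM1 (0.36 ± 0.053) and SRSF12 (0.35 ± 0.068) led, and the count was 5 without any of RBM25-NT-2, RBM25-CD46-2, RBFOX1N-NT-1, RBFOX1N-NT-2 and RBFOX1N-MAPT-2. Without RBM25-MAPT-2, 2 were lower. The hnRNP and PTB proteins had 8 higher and 1 lower (HNRNPH3, -0.24) of 27, led by HNRNPUL2 (0.51 ± 0.092) and HNRNPA3 (0.44 ± 0.065); 3 were lower without RBM25-MAPT-1 and 2 without RBM25-MAPT-2. Of 17 U1 snRNP proteins and U1-associated factors, 5 were higher and 2 lower. LUC7L3, the U1-associated partner of RBM25, had 388, 426 and 537 CPM with dCasRx-RBM25, 295, 309, 305 and 331 CPM with RBFOX1N-dCasRx-C and 355 and 364 CPM with dCasRx. Its log2 difference was 0.51 ± 0.073 (adjusted p = 0.000128, edgeR), and every dCasRx-RBM25 library lay above all others. LUC7L2, a related U1 factor, was lower (-0.33 ± 0.074), as was RBM10 (-0.22), while LUC7L (0.31 ± 0.056) and TIA1 (0.41 ± 0.099) were higher. Without RBFOX1N-MAPT-1, 3 were higher, and the lower count was 1 without any of RBM25-NT-2, RBM25-CD46-2, RBFOX1N-NT-1, RBFOX1N-NT-2 and RBFOX1N-MAPT-1. Of the nonsense-mediated decay and exon junction factors, 3 of 19 were higher, led by RBM8A (0.57 ± 0.066), and 3 lower, led by SMG9 (-0.56 ± 0.058).

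The RBFOX, MBNL, CELF, QKI and neuronal splicing factors had 9 higher and 6 lower of 23. The higher count was 4 or 5 without any of RBM25-CD46-2, RBFOX1N-NT-1, RBFOX1N-MAPT-1 and RBFOX1N-MAPT-2. RBFOX2 was the RBFOX gene with the highest level in the libraries of both effectors. It had 169.5, 189.6 and 202 CPM with dCasRx-RBM25 and 162, 156, 149 and 158 CPM with RBFOX1N-dCasRx-C. Its log2 difference was 0.28 ± 0.051 (adjusted p = 0.000892, edgeR). RBFOX3 had 2.82, 3.29 and 4.39 CPM with dCasRx-RBM25 and 2.28, 3.08, 2.69 and 2.84 CPM with RBFOX1N-dCasRx-C, and its difference of 0.31 ± 0.14 missed the threshold (adjusted p = 0.108, edgeR; 0.0216 without RBM25-MAPT-2). CELF3 (-1.57 ± 0.13) and NOVA1 (-0.56 ± 0.075), both neuronal splicing factors, were lower. Among 55 genes with exons known to respond to RBFOX, 16 were higher and 9 lower at the gene level, with a median of 0.055 and a range of -0.64 (RIMS2) to 0.57 (PLOD2). The higher count was 10 without RBFOX1N-NT-2 or RBFOX1N-MAPT-1. The guide-targeted genes themselves differed little: MAPT by 0.38 ± 0.072 and CD46 by 0.24 ± 0.074, the second with overlapping libraries and no call without any of RBM25-CD46-2, RBFOX1N-NT-1, RBFOX1N-MAPT-1 and RBFOX1N-MAPT-2. The CD46 guide was used with dCasRx-RBM25 alone, so the pooled CD46 value includes libraries in which that gene was targeted on that side only.

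**Figure D2:**
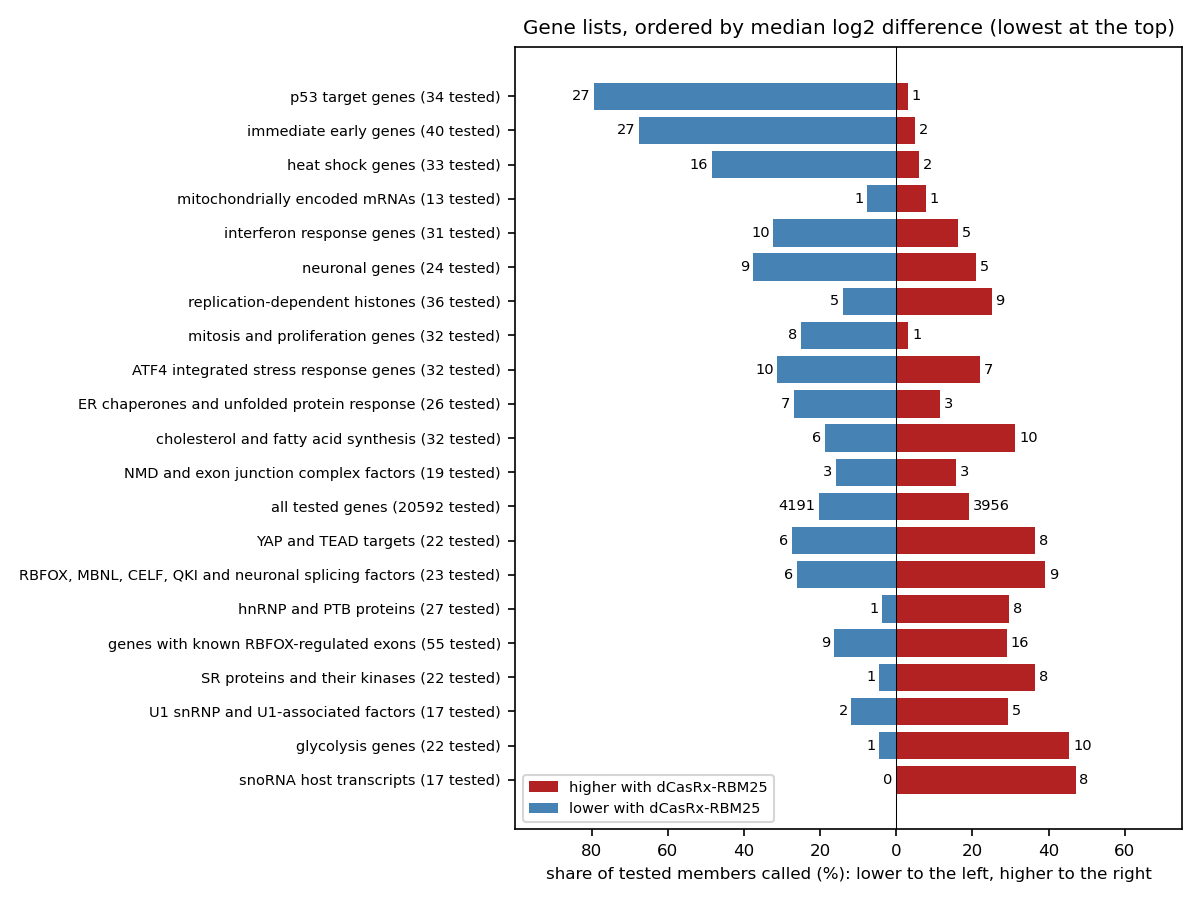
Share of the tested members of each list called lower (blue, to the left) and higher (red, to the right) with dCasRx-RBM25, with the number of genes at each bar's end and the lists ordered by median log2 difference. p53 targets and immediate early genes reach furthest to the left, with 27 lower members each, and glycolysis genes and snoRNA hosts furthest to the right, with 10 and 8 higher members; 1 bar shows all 20592 genes.

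The cell line was checked against the lists of markers, which were likewise chosen with earlier results of these data known. The 8 HEK293T markers summed to 1172 to 1405 CPM with dCasRx-RBM25, 1228 to 1318 CPM with RBFOX1N-dCasRx-C and 1123 to 1197 CPM with dCasRx. KRT8, a keratin, was lower with dCasRx-RBM25 (-1.27 ± 0.057) and PAX2 (0.74 ± 0.10), NEFL (0.34 ± 0.067) and NEFM (0.27 ± 0.068) were higher; NEFM had an adjusted p of 0.0557 (edgeR) without RBFOX1N-MAPT-1. Of 12 markers of other cell types, 7 were tested and summed to 30.6 to 42.9 CPM with dCasRx-RBM25 and 27.6 to 33.7 CPM with RBFOX1N-dCasRx-C, most of it from COL1A1, with 3 higher and 1 lower. The lower count was 2 without RBM25-NT-2 or RBFOX1N-NT-1. The other 5 (CD3E, CDH5, INS, LYZ and PTPRC) had 0 to 7 counts in any library. PTPRC, the defining marker of blood cells, at no more than 2 counts, stood beside the lower values of the blood-cell genes LAPTM5 and INPP5D.

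The effector difference was compared between guides from separate libraries. Of the 3429 genes called with the nontargeting guide, 3399 (99.1%) had the same direction with the MAPT guide and 2461 (71.8%) were called there too, which was 52.8% of the 4659 genes called with the MAPT guide. No gene was called in opposite directions. The test of the difference between guides called 0 genes by edgeR, with 765 of 20592 at an unadjusted p under 0.05, and 1 by DESeq2. S100A2 had log2 differences of -7.28 with the nontargeting guide and -6.40 with the MAPT guide, HMOX1 of -2.99 and -3.08, and TNN of 2.63 and 2.44. Splicing events gave a similar picture: of 1565 called with the nontargeting guide (1.56%), 1525 (97.4%) had the same direction with the MAPT guide and 825 (52.7%) were called there too, 47.9% of the 1724 (1.72%) called with the MAPT guide. Their test of the difference between guides called 0 of 100375 events, with 5279 at an unadjusted p under 0.05, and 0 by limma.

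Splicing was measured as the percent spliced in (PSI), the share of reads at an event that include the exon, retain the intron or use the splice site. Of 100375 events tested in 10694 genes, 2773 (2.76%) were called at an adjusted p under 0.05 with a difference of at least 10 points, 1257 (1.25%) with higher and 1516 (1.51%) with lower PSI in dCasRx-RBM25. They lay in 1835 genes, and in 2217 of them (2.21% of the tested) the libraries did not overlap. Cassette exons made up most, with 3.38% of 48368 called: 669 (1.38%) were more and 965 (2%) less included. Of 454 microexons, which are 27 nt or shorter, 7.71% were called: 13 (2.86%) were more and 22 (4.85%) less included. Retained introns were called in 774 of 27884 cases (2.78%), 407 (1.46%) more and 367 (1.32%) less retained. That balance is not stable: less retained introns were the more numerous without RBFOX1N-NT-1 (284 more, 363 less), RBFOX1N-MAPT-2 (298, 356) or RBM25-NT-1 (331, 351), with the nontargeting guide alone (190, 224), with the MAPT guide alone (206, 237), at 20 points (53, 83) and with limma (236, 264). Alternative 3′ splice sites gave 117 calls of 13302 (0.88%), 61 (0.459%) more and 56 (0.421%) less used. Alternative 5′ splice sites gave 213 of 10367 (2.05%), 107 (1.03%) more and 106 (1.02%) less used. Sites of 1 event sum to 100%, so their gains and losses balance. With limma on logit values, 1586 events were called.

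Mean PSI over whole classes differed by under 1 point. It was 44.2 ± 0.169% with dCasRx-RBM25 and 44.7 ± 0.172% with RBFOX1N-dCasRx-C for microexons (SD, n = 6 and n = 4), a difference of -0.465 points (exact two-sided permutation test over 210 splits, p = 0.00476, the smallest it can give; adjusted over 3 classes, 0.0143). The nearest libraries of the effectors both stood at 44.4%, and the exact permutation adjusted p was 0.0714 without RBFOX1N-MAPT-1. The dCasRx libraries stood at 43.3 and 43.4% for microexons, below every library of both fused effectors. Retained introns averaged 8.38 ± 0.325% with dCasRx-RBM25 and 7.67 ± 0.617% with RBFOX1N-dCasRx-C (difference 0.713 points, exact permutation adjusted p = 0.0857), and that adjusted p was 0.0179 without RBFOX1N-NT-2. Cassette exons averaged 80.4 ± 0.292% with dCasRx-RBM25 and 80.6 ± 0.158% with RBFOX1N-dCasRx-C (difference -0.277 points, exact permutation adjusted p = 0.129).

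The sequences of 10 coding exons described in the paragraphs that follow are shown first; they were chosen by hand with their values known, to give both directions, microexons and splicing factors, and are not the 10 largest differences. They were read from GENCODE 29 transcripts on hg38, 5′ to 3′, with the last 3 bases in capitals because they form the exon's side of the 5′ splice site, with which U1 snRNA pairs. The first 5 were more included with dCasRx-RBM25 and the last 5 less, and all lie wholly in coding sequence in the coding transcripts that hold them, except 1 of the 4 such transcripts of TIA1.
MYO9B, 48 nt, chr19:17210333-17210380, plus strand: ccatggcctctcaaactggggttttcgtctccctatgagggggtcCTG
ACTN4, 81 nt, chr19:38727946-38728026, plus strand: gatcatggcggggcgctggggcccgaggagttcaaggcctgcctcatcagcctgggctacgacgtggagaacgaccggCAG
FLNA, 24 nt, chrX:154357251-154357274, minus strand: tgtcaatcggaggtcacgggcTAG
LRRFIP2, 72 nt, chr3:37091467-37091538, minus strand: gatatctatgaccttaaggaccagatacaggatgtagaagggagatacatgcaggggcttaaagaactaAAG
EPB41, 63 nt, chr1:29060422-29060484, plus strand: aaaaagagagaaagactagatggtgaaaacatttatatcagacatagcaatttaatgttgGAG
TPCN2, 72 nt, chr11:69083945-69084016, plus strand: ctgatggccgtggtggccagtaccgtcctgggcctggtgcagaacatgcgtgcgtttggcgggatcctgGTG
SUPT5H, 12 nt, chr19:39458294-39458305, plus strand: aagagattgAAG
TIA1, 33 nt, chr2:70229059-70229091, minus strand: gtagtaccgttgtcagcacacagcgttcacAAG
RBM5, 61 nt, chr3:50104248-50104308, plus strand: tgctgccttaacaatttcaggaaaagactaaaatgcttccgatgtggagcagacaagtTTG
RBM10, 61 nt, chrX:47179103-47179163, plus strand: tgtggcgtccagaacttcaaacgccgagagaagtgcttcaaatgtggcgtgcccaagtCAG
The first 8 are multiples of 3 nt, so they add 16, 27, 8, 24, 21, 24, 4 and 11 codons' worth of sequence without a frame change. The RBM5 and RBM10 exons, from paralogous genes, have the same length, which is no multiple of 3, and are identical at 35 of 61 positions (57.4%) in register.

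Apart from exons of the gene lists, events were named only if called and if the libraries of the effectors did not overlap. In all 10 cassette exons with the largest gains, every RBFOX1N-dCasRx-C library thus lay below every dCasRx-RBM25 library. Every RBFOX1N-dCasRx-C library also lay below both dCasRx libraries, which the rule did not require. The 48-nt exon of MYO9B, a myosin with a RhoGAP domain, had a PSI of 93.7, 95.7 and 96.7% (lowest, median and highest) with dCasRx-RBM25, 42.5, 36.5, 39.2 and 36.1% with RBFOX1N-dCasRx-C and 87.7 and 97.1% with dCasRx. The difference was 57 points (adjusted p = 1.29e-09, quasi-binomial model). The RBFOX1N-dCasRx-C libraries alone were low, with no overlap. A 157-nt exon of PPIA (chr7:44798748-44798904), cyclophilin A, had 90.2, 92.7 and 95.4% with dCasRx-RBM25 and 40.3, 31.3, 26.2 and 34.4% with RBFOX1N-dCasRx-C, a difference of 59.7 points. A 49-nt exon of PTGES3 (chr12:56686869-56686917), the HSP90 cochaperone p23, had 68.5, 71.2 and 76.9% with dCasRx-RBM25 and 14, 13.6, 14.4 and 12.6% with RBFOX1N-dCasRx-C, a difference of 58.6 points. PPIA and PTGES3 have processed copies elsewhere in the genome that may share reads, so both are uncertain.

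FLNA, filamin A, which crosslinks actin, had 2 exons in the set. Its 198-nt exon (chrX:154366024-154366221) had 72.6, 73.2 and 79.2% with dCasRx-RBM25, 41.6, 37.4, 38.5 and 42.1% with RBFOX1N-dCasRx-C and 79.8 and 80.2% with dCasRx, a difference of 34.8 points (adjusted p = 5.47e-10, quasi-binomial model). Its 24-nt microexon had 65.7, 69.2 and 70.4% with dCasRx-RBM25, 44.5, 44.6, 40.6 and 44.5% with RBFOX1N-dCasRx-C and 71.4 and 67.9% with dCasRx, a difference of 24.9 points. In both exons the RBFOX1N-dCasRx-C libraries alone were low and the dCasRx libraries sat with or above the dCasRx-RBM25 libraries. The other exons among the 10 largest gains were in CSF1 (49.8 points), ZNF706 (42.7), DOCK6 (38), IRF9 (35.2), the pseudogene SMG1P7 (35) and a locus without a gene name in the deposited table that lies in AMZ2P1 in GENCODE 29 (57.3). The PSI of the IRF9 exon, of a factor of interferon signalling, averaged 90.1 ± 6.26% with dCasRx-RBM25 and 54.9 ± 11.6% with RBFOX1N-dCasRx-C (SD, n = 6 and n = 4).

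Of the 10 cassette exons with the largest losses, 4 averaged under 10% in both dCasRx-RBM25 and dCasRx and over 36% with RBFOX1N-dCasRx-C: those of SQSTM1, RAB3GAP2, ZNF644 and C17orf53. A 157-nt exon of SQSTM1 (chr5:179821551-179821707), the autophagy receptor p62, had 0, 0.815 and 1.5% with dCasRx-RBM25, 32.9, 32.7, 42.6 and 36.8% with RBFOX1N-dCasRx-C and 3.01 and 1.27% with dCasRx. The difference was -35.4 points (adjusted p = 2.08e-09, quasi-binomial model). The exon is in no coding transcript of GENCODE 29, and the RBFOX1N-dCasRx-C libraries alone were high. A 646-nt exon of DOT1L (chr19:2227737-2228382), the histone H3 lysine 79 methyltransferase, had 13.5, 17.5 and 19.9% with dCasRx-RBM25 and 46.2, 58.8, 56.5 and 52.2% with RBFOX1N-dCasRx-C, a difference of -36.3 points. Exons of RAB3GAP2 (-34.2 points), ZNF644 (-36.8) and C17orf53 (-40.6) had averages of 2.9%, 7.4% and 4.3% with dCasRx-RBM25. TPCN2, a two-pore channel of endolysosomes, differed in its order: its 72-nt exon had 37.3, 47.5 and 54.5% with dCasRx-RBM25, 87.2, 74.7, 82.6 and 78.9% with RBFOX1N-dCasRx-C and 78.7 and 94.1% with dCasRx. There the dCasRx-RBM25 libraries alone were low. The others were CBX1 (-41.1), IL18BP (-37.8), BAZ2A (-36.5) and TSPAN9 (-33.5).

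Exons of genes known as RBFOX targets were counted from a list of 55 genes, 48 of which had a tested exon. Of their 413 tested exons, 9 were more and 6 less included (3.63% called, beside 3.42% of all 48822 exons of any length), so the share was near that of all exons. ACTN4, an actin crosslinker, had its 81-nt exon at 95.2, 97.1 and 98.2% with dCasRx-RBM25, 68.3, 66.8, 71.1 and 73.5% with RBFOX1N-dCasRx-C and 98.9 and 98% with dCasRx, a difference of 26.9 points (adjusted p = 2.12e-10, quasi-binomial model). The 72-nt exon of LRRFIP2 averaged 58.7 ± 6.42% with dCasRx-RBM25 and 37.4 ± 3.35% with RBFOX1N-dCasRx-C, a difference of 21.4 points. EPB41, protein 4.1R of the membrane skeleton, had its 63-nt exon at 45.4, 46.4 and 48.9% with dCasRx-RBM25, 33.9, 32.2, 33.8 and 31.7% with RBFOX1N-dCasRx-C and 50.1 and 44.7% with dCasRx, a difference of 13.8 points. In ACTN4 and EPB41 the RBFOX1N-dCasRx-C libraries alone were low. CTTN, the actin regulator cortactin, averaged 63.5 ± 2.12% with dCasRx-RBM25 and 47.4 ± 0.901% with RBFOX1N-dCasRx-C in a 111-nt exon, and MEF2D, a muscle transcription factor, 97.1 ± 2.22% with dCasRx-RBM25 and 73.9 ± 4.37% with RBFOX1N-dCasRx-C in a 307-nt exon.

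DIAPH2 (21.8 points), FMNL3 (25.6), MYO18A (14.8) and PTBP2 (10.7) were also more included. PTBP2 kept its call only when RBM25-NT-2 or RBFOX1N-NT-1 was the library left out. The less included exons lay in KIF21A (-23.1 points), the calmodulin kinases CAMK2D (-20.3) and CAMK2G (-18.1), and MAP3K7 (-11.4), the kinase TAK1. The 73-nt exon of CAMK2D averaged 3.71 ± 3.22% with dCasRx-RBM25 and 24 ± 3.34% with RBFOX1N-dCasRx-C, and that of MAP3K7 80.2 ± 3.06% with dCasRx-RBM25 and 91.6 ± 1.62% with RBFOX1N-dCasRx-C.

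Microexons that differed were found in both directions. SUPT5H, the transcription elongation factor SPT5, had its 12-nt microexon at 67.5, 70.2 and 72% with dCasRx-RBM25, 93.6, 93.9, 95.1 and 92.7% with RBFOX1N-dCasRx-C and 84.1 and 83.2% with dCasRx, a difference of -24 points (adjusted p = 1.17e-08, quasi-binomial model). No groups overlapped, and dCasRx lay between the fused effectors. CYTH1, an exchange factor for ARF GTPases, has a 3-nt microexon (chr17:78696007-78696009) that averaged 75.1 ± 4.52% with dCasRx-RBM25 and 48.3 ± 2.25% with RBFOX1N-dCasRx-C, a difference of 26.8 points. PRR14 (24.9 points), SLC25A51 (-26.8), the mitochondrial NAD transporter, and the calcium channel CACNA1H (-21.8) completed the named set. The CACNA1H call was lost without any of RBM25-NT-1, RBM25-CD46-1, RBFOX1N-NT-1, RBFOX1N-NT-2 and RBFOX1N-MAPT-1.

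Exons of the splicing factors themselves were among the events called. RBM5 and RBM10 are RNA-binding paralogs with zinc fingers that act in early spliceosome assembly. The 61-nt exon of RBM5 had 41.7, 45.5 and 48.9% with dCasRx-RBM25, 70.3, 63.3, 72.2 and 66.4% with RBFOX1N-dCasRx-C and 59.1 and 48.7% with dCasRx, a difference of -22.4 points (adjusted p = 2.24e-05, quasi-binomial model). The 61-nt exon of RBM10 had 81.9, 84.8 and 86.3% with dCasRx-RBM25, 94.7, 97.3, 98.8 and 94.5% with RBFOX1N-dCasRx-C and 82 and 83.3% with dCasRx, a difference of -12.1 points. Both exons were less included with dCasRx-RBM25 in every library, without overlap, and the mean of the dCasRx libraries was closer to that of dCasRx-RBM25, although 1 of the 2 dCasRx libraries was closer to RBFOX1N-dCasRx-C for RBM5. TIA1 and TIAL1 are related U-rich RNA-binding proteins that help recruit U1 snRNP. The 33-nt exon of TIA1 had 40.6, 46.8 and 49% with dCasRx-RBM25 and 63.9, 67.1, 69 and 67.2% with RBFOX1N-dCasRx-C, a difference of -21 points, and a 62-nt exon of TIAL1 averaged 16.6 ± 2.53% with dCasRx-RBM25 and 31.8 ± 3.43% with RBFOX1N-dCasRx-C.

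SRRM2, a large SR-related protein of nuclear speckles, had a 60-nt exon (chr16:2758988-2759047) at 70.3, 73.3 and 73.6% with dCasRx-RBM25, 94.7, 94.4, 91.7 and 93% with RBFOX1N-dCasRx-C and 90.7 and 88.8% with dCasRx, a difference of -20.8 points (adjusted p = 1.66e-10, quasi-binomial model). The dCasRx-RBM25 libraries alone were far down. CLK1, a kinase of SR proteins, averaged 64.5 ± 7.61% with dCasRx-RBM25 and 50.4 ± 3.96% with RBFOX1N-dCasRx-C in a 167-nt exon. PRPF39 (15 points) and LUC7L (10.8), both U1-associated, and HNRNPC (17.5) were more included, and HNRNPLL (-10.6) less. SRRM3 (26.4), an activator of neuronal microexons, and the epithelial splicing factor ESRP2 (15.2) were more included as well. The LUC7L value was 9.82 points without RBM25-NT-1. Without RBFOX1N-MAPT-1 the HNRNPLL value was -8.68 points and ESRP2 had an adjusted p of 0.0561 (quasi-binomial model), and SRRM3, whose libraries overlapped, had 0.0689 without RBM25-MAPT-1. Counted over all tested exons, the SR list had 1 more and 1 less included of 114, the hnRNP list 3 and 1 of 129, and the U1 list 2 and 4 of 162. These shares of 1.75%, 3.1% and 3.7% were below or near the 3.42% of all tested exons.

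**Figure D3:**
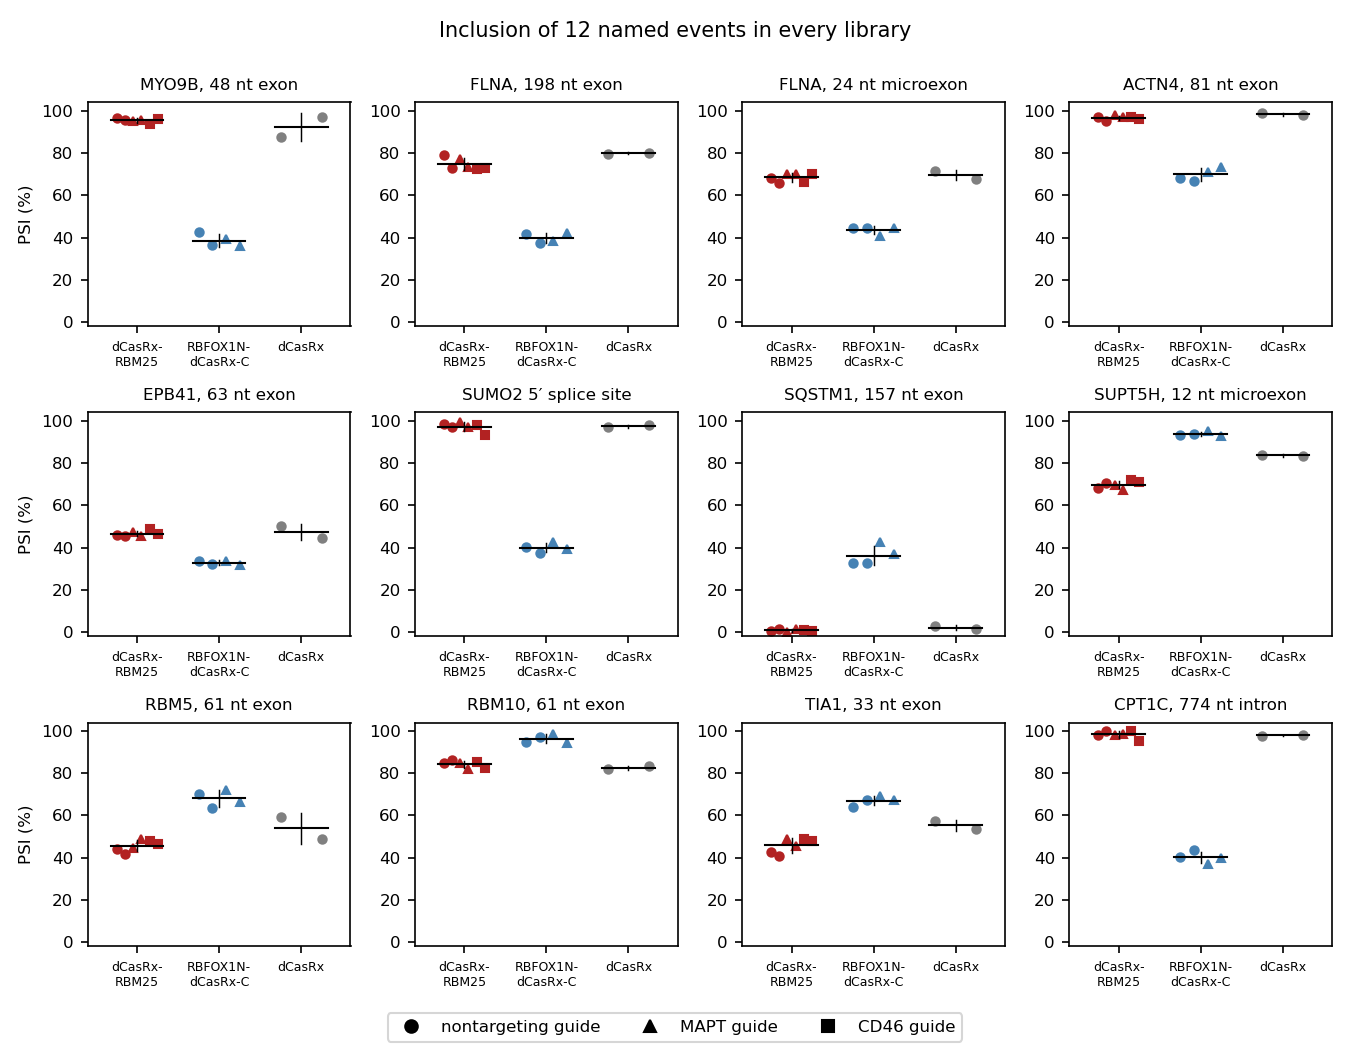
PSI in percent (vertical axes, 0 to 100) of 12 named events in every library of dCasRx-RBM25 (red), RBFOX1N-dCasRx-C (blue) and dCasRx (grey); marker shape gives the guide, the horizontal bar the mean and the vertical line 1 SD (n = 6, 4 and 2). MYO9B, both FLNA exons, ACTN4, EPB41, SUMO2 and CPT1C are lower with RBFOX1N-dCasRx-C than in all other libraries, and SQSTM1, SUPT5H, RBM5, RBM10 and TIA1 are higher.

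Intron retention, which rests on reads across exon-intron junctions, gave some large values. A 774-nt intron of CPT1C (chr19:49711962-49712735), a neuronal carnitine palmitoyltransferase, was retained at 95.5, 98.3 and 100% with dCasRx-RBM25, 40.3, 43.6, 37 and 39.6% with RBFOX1N-dCasRx-C and 97.8 and 98.1% with dCasRx, a difference of 58.2 points (adjusted p = 3.22e-09, quasi-binomial model). NFATC4, a calcium-regulated transcription factor, averaged 51 ± 6.24% with dCasRx-RBM25 and 9.31 ± 3.04% with RBFOX1N-dCasRx-C in a 759-nt intron. Introns of HOXA-AS2 (35.3 points; it overlaps HOXA3 on the other strand and is uncertain), GABBR1 (33) and CARD9 (30.8) were also more retained. In CPT1C and NFATC4 the RBFOX1N-dCasRx-C libraries alone were low. Less retained introns lay in PKM (-44 points), ZBTB48 (-43.5), ZNF691 (-43) and ATXN2 (-42.3), the last 42864 nt long. C17orf53 had a 3057-nt intron at 3.43% with dCasRx-RBM25 and 47.7% with RBFOX1N-dCasRx-C; it holds the gene's 95-nt exon described above, so the events share reads. As a class, the 407 more retained introns had a median length of 525 nt and the 367 less retained ones of 1444 nt, beside 733.5 nt for all 27884 tested.

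Alternative splice sites gave the SUMO2 5′ splice site as the largest difference. Its shortest form (chr17:75182382-75182563) was used at 93.2, 97.8 and 99.3% with dCasRx-RBM25, 40.3, 37.6, 42.6 and 39.3% with RBFOX1N-dCasRx-C and 96.9 and 97.9% with dCasRx, a difference of 57.3 points (adjusted p = 6.73e-10, quasi-binomial model), and the form that is 267 nt longer lost the same share. The RBFOX1N-dCasRx-C libraries stood alone. PCNT, the centrosome protein pericentrin, used a 5′ splice site 237 nt further on at 64 ± 6.54% with dCasRx-RBM25 and 27.9 ± 1.31% with RBFOX1N-dCasRx-C. Other 5′ sites with gains lay in ZFP62 (25.2 points) and CENPV (25), a centromere protein, and with a loss in ZNF232 (-26.3). Among 3′ splice sites, HSP90AB1, the cytosolic chaperone HSP90 beta, used a form 216 nt longer at 78.5 ± 8.26% with dCasRx-RBM25 and 44.4 ± 8.68% with RBFOX1N-dCasRx-C, with dCasRx at 37.7 and 47.9%, so there the dCasRx-RBM25 libraries stood apart. WDR33 (30.9 points), a cleavage and polyadenylation factor, JMY (28.8) and CCDC136 (26.7) gained a longer form, and NACA (-26.6) and RECQL4 (-24.5) lost use of the site given. SUMO2, HSP90AB1, NACA and PKM have processed copies that may share reads and are uncertain.

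The called cassette exons were described by their lengths, flanking introns, frame and last base, which the test did not use, and by their PSI in dCasRx, whose libraries shared the fit. The 669 more included exons had a median length of 134 nt and the 965 less included of 106 nt, beside 115 nt for all 48368 tested. Their upstream introns had medians of 860 nt and 1631 nt, beside 1826 nt, and their downstream introns 1140 nt and 1802 nt, beside 1972 nt. Exons that kept the reading frame were 37.7% and 38.8%, beside 37.2%. In dCasRx the median PSI of the more included exons was 80.0% and of the less included 75.3%, beside 95.1% for all. The last base was G in 74.9% of the more and 83.7% of the less included exons, beside 79.1%.

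Both motifs known for these factors were counted in the exons on the transcript strand; flanking introns were not examined. Exon sequence was found for 97.8% of the more and 96.0% of the less included exons and 96.0% of all. CGGGCA, the letters of the RBM25 motif, was in 35 of 654 more included exons (5.35%) and 21 of 926 less included exons (2.27%), beside 2.49% of all 46438. TGCATG, the RBFOX motif written as DNA, was in 33 (5.05%) and 26 (2.81%), beside 3.06%. The motifs cannot overlap each other, and longer exons have more room for either: per kilobase CGGGCA occurred 0.278 and 0.163 times, beside 0.187, and TGCATG 0.256 and 0.202 times, beside 0.225. A match describes the letters and not a binding site.

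Expression and splicing calls were set side by side in the 9956 genes tested for both. Of 1727 genes with a called event, 787 (45.6%) were also called for expression, which was 19.1% of the 4128 genes called for expression; 41.5% of all 9956 were so called. MEF2D was an example of both, with a lower level (-0.54 ± 0.071) and the exon gain given above. TIA1 was higher in level and lower in the inclusion of its 33-nt exon.

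The dCasRx libraries, which had the nontargeting guide alone, were used to place the values and not to test them. Their mean lay nearer to dCasRx-RBM25 than to RBFOX1N-dCasRx-C in 885 of the 1243 genes that were lower by at least 2-fold (71.2%) and in 147 of the 378 that were higher by at least 2-fold (38.9%). For splicing it lay nearer to dCasRx-RBM25 in 854 of 1257 more included events (67.9%) and 929 of 1516 less included events (61.3%). The dCasRx mean fell between the means of the fused effectors in 64.0% and 61.9% of these events. The 2 dCasRx libraries differed from each other on the second component, as given above, and the part of that difference in these counts was not tested.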

How the data were processed

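The authors deposited raw read counts per Ensembl gene for each library; the submitters' processing notes name STAR 2.7.10, edgeR and hg38. The percent spliced in (PSI) per event was deposited by the authors in the layout of a vast-tools table per the file headers, with inclusion and exclusion reads beside it. No source used here gives the annotation behind the counting, its strand setting or the event filters. PSI recomputed from those reads was within 0.05 points of the deposited percent in 99.9994% of values.

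Genes were tested with edgeR 4.0.16 in R 4.3.3 (filterByExpr, TMM scaling, 6 group means over all 12 libraries, quasi-likelihood F test), the effector difference being the mean of the 3 dCasRx-RBM25 groups minus the mean of the 2 RBFOX1N-dCasRx-C groups. CPM uses the TMM-scaled totals, and 62639 of 62710 gene IDs had a symbol. Events needed at least 20 reads in every library and 24 reads of the less used form in all; they were tested with a quasi-binomial logistic model with a moderated dispersion (numpy 2.4.6, scipy 1.17.1), and a call also needed 10 points. Adjusted p-values are Benjamini-Hochberg over all genes or all events. DESeq2 1.42.0 and limma 3.58.1 (logit of PSI) were alternatives. Replicates of a group differed by more than sampling noise (chi-square per gene 6.49 to 36.3). Simulated gene changes for this comparison were placed only in genes over 5 CPM. The gene test recovered 100% of genes changed by 1 on the log2 scale and 92% of those changed by 0.5. It made 13 false calls among 20593 genes. Simulated event changes were placed only in events of intermediate PSI with at least 50 reads in every library, with a fixed spread between libraries. The event test recovered 93% of 20-point and 32% of 10-point changes, with 9 false calls among 20076 events. Recovery in genes of lower level, and in events with fewer reads or near either end of the PSI range, was not simulated.

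Named genes were the 12 largest differences in each direction among called genes with a mean of at least 5 CPM in an effector, libraries that did not overlap and a symbol that is no pseudogene, up to 4 called members of each list, and the RBFOX genes, MAPT and CD46. Named events were, 1 per gene among called events that did not overlap, the 10 cassette exons with the largest gain and the 10 with the largest loss, up to 6 microexons, 5 introns and 4 splice sites of each kind in each direction. In the RBFOX target and splicing factor lists the called exon with the largest difference in each gene was named, overlapping or not. The members and lists were chosen with earlier results of these data known. No genome was used, so exon sequence came from GENCODE 29 transcripts and introns were not read.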

Additional observations from a re-analysis of the deposited data

Results flagged for a closer look

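Of 384 sets of libraries examined, each 1 effector's values for a named gene, event or event class, 19 held a library far from the rest by Dixon's criterion, and chance alone gives about 1 in 20, or 19.2.

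Among the 6 dCasRx-RBM25 libraries, replicate 1 with the nontargeting guide was high for KCNJ14 at 16.4 CPM (the others 9.44 to 11.7), GSDMB at 18.5 CPM (12.8 to 14.8) and NUAK2 at 4.95 CPM (3.41 to 3.95). Replicate 2 with the MAPT guide was low for FOSL1 at 2.87 CPM (4.4 to 5.24), HSPB8 at 2.56 CPM (2.9 to 3.09) and HSPB1 at 80.5 CPM (118 to 137), and high for SRSF12 at 17.5 CPM (15.6 to 16.2). Replicate 1 with the MAPT guide was high for PMVK at 32 CPM (27.5 to 29) and for the CAMK2G exon at a PSI of 28% (16.5 to 19.7%). Replicate 1 with the CD46 guide was high for HSPA1L at 0.335 CPM (0.12 to 0.185) and low for RBM24 at 0.598 CPM (0.957 to 1.05).

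Among the 4 RBFOX1N-dCasRx-C libraries, replicate 1 with the nontargeting guide was low for KIAA1614 at 2.08 CPM (2.84 to 2.96), GSDMB at 4.86 CPM (6.42 to 6.56) and NOVA1 at 14.6 CPM (17.9 to 18.5), and high for SC5D at 103 CPM (94.8 to 96). Replicate 2 with that guide was high for the TSPAN9 exon at 80.8% (63.6 to 65.4%) and the PRPF39 exon at 20% (18.6 to 18.7%). With the MAPT guide, replicate 2 was high for LUC7L at 72.6 CPM (67.3 to 67.7) and replicate 1 was low for the 24-nt FLNA microexon at 40.6% (44.5 to 44.6%).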

How the results depend on the processing

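Of the called differences given by name, none changed sign under the alternatives run; of all genes and events called with the nontargeting guide, 99.1% and 97.4% had the same direction with the MAPT guide. The balance of more and less retained introns turned under 7 alternatives, as given above. Genes called numbered 8147, and 3429 (1446 higher, 1983 lower) with the nontargeting guide alone and 4659 (2189 and 2470) with the MAPT guide alone, both of which use fewer libraries. With single libraries left out, 5818 to 8802 were called, 2542 to 4268 higher and 3184 to 4534 lower. Events called numbered 2773, and 6515 (3053 more, 3462 less included) at 5 points, 506 (217 and 289) at 20 points, 1565 (645 and 920) with the nontargeting guide, 1724 (797 and 927) with the MAPT guide and 1586 (667 and 919) with limma; the cause of the limma value was not tested. DESeq2 called 1 gene in the test of the difference between guides. The mean PSI difference of microexons was -0.402 points at a minimum of 50 reads and -1.5 as a median, past the threshold in neither, and -0.544 to -0.407 with single libraries left out; that of introns was 0.518 to 0.979. Other scalings, filters and pooled means called 8102 to 8567 genes, the contrast without the CD46 guide libraries 7552 and DESeq2 7272. Of the alternative values for named genes, 2138 kept direction and side of the threshold, 101 lost the call and 1 gained it; for named events the counts were 1362 and 67. Counts of list members called were less stable: 745 stayed within 1.5 times and 135 moved further, among them 32 of 44 with the nontargeting guide alone and 18 of 44 with the MAPT guide alone. For events of intermediate PSI with at least 50 reads, 10-point changes were recovered at the adjusted p alone in 32% of simulated cases.

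Same-numbered replicates deviated together weakly among the dCasRx-RBM25 groups (correlations 0.0996 to 0.166), and the source of this was not tested. All other pairs of groups had correlations of -0.0979 to 0.0318, so the numbers pair no samples across effectors by this check. With the replicate number as a block, 8600 genes and 2778 events were called, and the test of the difference between guides called 0 of each.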

Other observations

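Exons of stress-response genes were also among the events called, beside 3.42% of all tested exons of any length; the exons here were chosen after their values were seen. The share called was 3.9% for heat shock genes, 2.22% for ATF4 targets and 0.806% for genes of the unfolded protein response, and higher for the lists that follow. Of 135 tested exons of p53 target genes 4 were more and 7 less included (8.15%), and all 4 gains lay in SPATA18. MDM2, the ubiquitin ligase of p53, had a 71-nt exon at 34.9% with dCasRx-RBM25, 66.1% with RBFOX1N-dCasRx-C and 54.3% with dCasRx, a difference of -31.2 points (adjusted p = 1.7e-07, quasi-binomial model), without overlap. Of 22 tested exons of immediate early genes 2 were more and 2 less included (18.2%). ATF3, a stress-induced transcription factor, had a 101-nt exon at 74.8% with dCasRx-RBM25, 40.7% with RBFOX1N-dCasRx-C and 68.5% with dCasRx. KLF10 had a 153-nt exon at 1.2% with dCasRx-RBM25, 20.2% with RBFOX1N-dCasRx-C and 1.35% with dCasRx. SRF (12.1 points) and NR4A1 (-15.4 points) held the others.

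A 753-nt exon of MAPT, which is not the guide-targeted exon 10, was included at 11.7% with dCasRx-RBM25, 0.546% with RBFOX1N-dCasRx-C and 3.53% with dCasRx, a difference of 11.2 points without overlap. TXNDC5, a protein disulfide isomerase, was the gene that DESeq2 called for a difference between guides, with a log2 value of 1.55 (adjusted p = 0.0207 by DESeq2 and 0.936 by edgeR); it averaged 4.42 CPM with dCasRx-RBM25 and 6.43 CPM with RBFOX1N-dCasRx-C.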
